A study of Mus musculus with 6 samples.

Results

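The transcripts that carry the microRNAs of the miR-17 family, and the Myc transcription factors known to act on them, were followed in cortical neurons in which miR-17-5p had been sponged. The 5 genes were picked by symbol from the 35510 genes of the deposited table of normalised counts. They are Mir17hg, the host transcript of the miR-17 to miR-92 cluster, Mcm7, whose intron holds the miR-106b cluster, and Myc, Mycn and Mycl. All 5 had a mean of at least 10 normalised counts, the limit set for testing, as did 22479 genes in all. None of the 5 differed between sponge and control libraries beyond the spread of the libraries. This was not particular to them, since 0.0% of the 22479 genes passed a limma adjusted p of 0.05.

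Cells came from wild-type mice of the outbred stock Swiss (RjOrl:SWISS) whose brains received plasmid by in utero electroporation at E15.5. The groups got either a control plasmid or a miR-17-5p sponge plasmid, whose RNA offers binding sites that keep this microRNA from its natural targets. Each group had 3 libraries of cortical neurons at postnatal day 0, each made from 50 ng of total RNA of about 100000 cells pooled from about 10 brains, and the column names mark the cells as FACS-sorted. The gate is not given in the sources used here, and neither are the plasmid's promoter and how much mature miR-17-5p the sponge bound.

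The miR-17 to miR-92 cluster is transcribed as a long RNA from which hairpins are cut, and each hairpin is processed to short mature microRNAs. A mature microRNA pairs through its seed, the bases 2 to 8 from its 5′ end, with sites in messenger RNAs and lowers their stability and translation. Myc and Mycn are basic helix-loop-helix transcription factors that bind DNA with Max and are known to activate the miR-17 cluster, and E2F factors activate both clusters and are in turn targets of miR-17. In the developing cortex the cluster is known for keeping progenitors dividing, and Mycn for the expansion of neural progenitors. Mcm7 is a subunit of the helicase that unwinds DNA at replication origins.

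The mature microRNAs are shown because the sponge was built against the first of them, and because they set which members of both clusters share its seed. Sequences are from RefSeq (GRCm38.p6), 5′ to 3′, with the seed in capitals, and all 9 microRNA genes found in the table had an entry.
miR-17-5p (Mir17hg): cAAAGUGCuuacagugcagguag
miR-20a-5p (Mir17hg): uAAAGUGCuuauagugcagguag
miR-106b-5p (Mcm7): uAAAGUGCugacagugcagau
miR-93-5p (Mcm7): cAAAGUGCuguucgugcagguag
miR-18a-5p (Mir17hg): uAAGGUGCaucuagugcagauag
miR-19a-3p (Mir17hg): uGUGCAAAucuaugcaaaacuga
miR-19b-3p (Mir17hg): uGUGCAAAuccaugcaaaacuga
miR-92a-3p (Mir17hg): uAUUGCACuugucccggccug
miR-25-3p (Mcm7): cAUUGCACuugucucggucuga
The seed AAAGUGC was shared by 4 of them, 2 from each host transcript. The seed AUUGCAC also occurred in both hosts, in miR-92a-3p and miR-25-3p. Counted from the 5′ end, miR-20a-5p differed from miR-17-5p by C1U and C12U. The microRNA miR-106b-5p differed by C1U, U10G and G20A over the 21 bases compared, and miR-93-5p by U10G, A11U, C12U and A13C. No difference from miR-17-5p in these 3 lay within the seed.

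Mir17hg lies on the forward strand at chr14:115042879-115046727 (GRCm38, GENCODE annotation) and is annotated as a long non-coding RNA. The hairpins Mir17, Mir18, Mir19a, Mir20a, Mir19b-1 and Mir92-1 all lie within an exon of its transcript of 2 exons. Mcm7 lies on the reverse strand at chr5:138164583-138172422, and Mir106b, Mir93 and Mir25 lie in intron 13 of its main protein-coding transcript of 15 exons. Mir93 and Mir25 also fall in an exon of a shorter annotated Mcm7 transcript that keeps the intron. The hairpins of miR-17 and of miR-106b are given here with the mature 5p arm in capitals, since both have a row of their own in the deposited table.
Mir17, chr14:115043671-115043754, forward strand: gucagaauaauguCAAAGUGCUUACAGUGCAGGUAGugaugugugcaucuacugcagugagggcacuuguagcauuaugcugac
Mir106b, chr5:138165737-138165818, reverse strand: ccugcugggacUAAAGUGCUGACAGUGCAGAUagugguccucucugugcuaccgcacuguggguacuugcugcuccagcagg
The paralogous miR-106a cluster was looked for but not analysed. Of 16 listed microRNA genes, only the 9 named above were found in the deposited table.

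Totals were 115445910 to 138254412 whole multiples of each library's smallest step, which describe depth. In each library more genes stood at 2 steps (927 to 2064) than at 1 step (425 to 948), and whether the mates of a read pair were counted separately was not tested. Control library 1 stood apart, with correlations of log2 values of 0.942 to 0.954 with the other 5 libraries. All 12 markers of cortical excitatory neurons passed the limit for testing, with summed normalised counts of 631004 to 696062 in the control and 661306 to 675650 in the sponge libraries. Radial glia and intermediate progenitor markers (12 of 12 tested) summed to 415929 to 581679 and 438671 to 554772, and markers of dividing cells (12 of 12) to 104416 to 127887 and 111246 to 133211. Progenitor genes were thus measured beside neuronal genes in every library. Fewer cells of a type and less RNA per cell cannot be told apart in such bulk samples.

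Sums for interneuron markers (9 of 9 tested) were 54000 to 77271 in the control and 41289 to 79117 in the sponge libraries, and for astrocyte markers (8 of 8) 127292 to 172225 and 143906 to 208505. Markers of oligodendrocyte precursors (7 of 7) summed to 88237 to 109485 and 116296 to 131366, without overlap. Microglial markers (10 of 10) summed to 8141 in control library 1 and 4216 to 5419 in the other 5 libraries. Erythroid markers (7 of 8 tested) summed to 32264 in control library 1 and 1444 to 4259 in the others, and vascular markers (10 of 10) to 8170 to 12572 over all 6. Values of 0 occurred for Gjb6 in control library 3, for Slc4a1 in control library 2 and sponge library 3, and for Dcn in sponge library 3. The part of these cell types in the results below was not tested.

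The comparison of sponge with control asks whether holding back miR-17-5p was accompanied by a change in its own host transcripts or in the Myc genes. It was made with limma on log2(normalised count + 1), two-sided, with p adjusted by Benjamini-Hochberg over all 22479 genes. In this fit 0.0% of genes passed an adjusted p of 0.05, with a smallest adjusted p of 0.406. Unadjusted p-values under 0.05 were found for 650 genes (2.89%), of which 356 (1.58%) had higher and 294 (1.31%) lower values with the sponge. The 3 sponge values lay wholly above or below the 3 control values for 11.2% of genes, and none of the 5 genes was among them. The 95% interval of the median gene reached 0.565 on the log2 scale to either side of its estimate, so changes within that range were not resolved for such a gene. The cell type markers had 0 calls in either direction. Their median log2 fold changes, beside 0.0061 over all genes tested, were 0.0088 for cortical neurons (7 of 12 above 0), 0.0031 for progenitors (6 of 12) and −0.24 for interneurons (0 of 9). They were 0.36 for oligodendrocyte precursors (7 of 7), 0.32 for astrocytes (6 of 8), 0.07 for vascular cells (5 of 10), −0.33 for microglia (4 of 10) and −0.49 for erythroid cells (1 of 7). Of the 7 oligodendrocyte precursor genes, 5 had sponge values wholly above the control values and 4 an unadjusted p under 0.05. Without control library 1 the medians were −0.09 for neurons, 0.09 for progenitors, −0.16 for interneurons, 0.24 for oligodendrocyte precursors, 0.27 for astrocytes, 0.41 for vascular, 0.29 for microglial and 0.47 for erythroid markers. The astrocyte median was 0.07 without control library 3, and the interneuron median was −0.06 without sponge library 1.

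Mir17hg measured 891, 1111 and 1767 normalised counts in control libraries 1, 2 and 3, and 685, 1268 and 1049 in sponge libraries 1, 2 and 3. Control library 3 was the highest of the 6 and sponge library 1 the lowest, and the groups overlapped. The means were 1256 ± 455 in the control and 1001 ± 294 in the sponge libraries (SD, n = 3 each). The log2 fold change, sponge minus control, was −0.31 ± 0.31 (SE; 95% interval −1.04 to 0.42; limma adjusted p = 0.925). The exact two-sided permutation test over the 6 libraries gave p = 0.50, where 3 against 3 cannot go below 0.1. Leaving out control library 3 moved the fold change to −0.04, and leaving out sponge library 1 moved it to −0.06, so its size rested on these libraries.

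Mcm7 measured 29310, 23926 and 21251 normalised counts in the control libraries, and 22098, 22618 and 22342 in the sponge libraries. The sponge values lay close together, between the lowest and the middle control value. Means were 24829 ± 4104 and 22352 ± 260 (SD, n = 3 each), and the log2 fold change was −0.14 ± 0.14 (SE; 95% interval −0.47 to 0.19; limma adjusted p = 0.925; exact permutation p = 0.40). The fold change was −0.24 without control library 3. Without control library 1 the fold change was −0.01. That library had high erythroid and microglial marker sums, and over all genes tested it correlated with the other libraries at 0.942 to 0.954. The part of its composition, or of any wider difference of that library, in the Mcm7 value was not tested.

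Myc, the founding member of its family and a regulator of growth and division, measured 1715, 1686 and 1134 in the control libraries and 1704, 1688 and 1775 in the sponge libraries. Control library 3 lay below the other 5 libraries, which stayed between 1686 and 1775. Means were 1512 ± 328 and 1722 ± 46.3 (SD, n = 3 each), and the log2 fold change was 0.21 ± 0.19 (SE; 95% interval −0.23 to 0.65; limma adjusted p = 0.925; exact permutation p = 0.40). Without control library 3 it was 0.02, and without control library 1 it was 0.32.

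Mycn, the family member known for neural progenitors, measured 10117, 10242 and 8746 in the control libraries and 9638, 9632 and 10078 in the sponge libraries. Here too control library 3 was the lowest, and all sponge values lay within the control range. Means were 9702 ± 830 and 9783 ± 256 (SD, n = 3 each), with a log2 fold change of 0.02 ± 0.11 (SE; 95% interval −0.25 to 0.28; limma adjusted p = 0.982; exact permutation p = 1.0).

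Mycl, a further member of the Myc family, measured 30480, 32410 and 28211 in the control libraries and 32061, 29426 and 29336 in the sponge libraries. All sponge values again lay within the control range. Means were 30367 ± 2102 and 30274 ± 1548 (SD, n = 3 each), with a log2 fold change of −0.0033 ± 0.12 (SE; 95% interval −0.27 to 0.26; limma adjusted p = 0.997; exact permutation p = 1.0). The intervals of Mycn and Mycl were the narrowest of the 5, and the interval of Mir17hg was the widest.

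**Figure D1:**
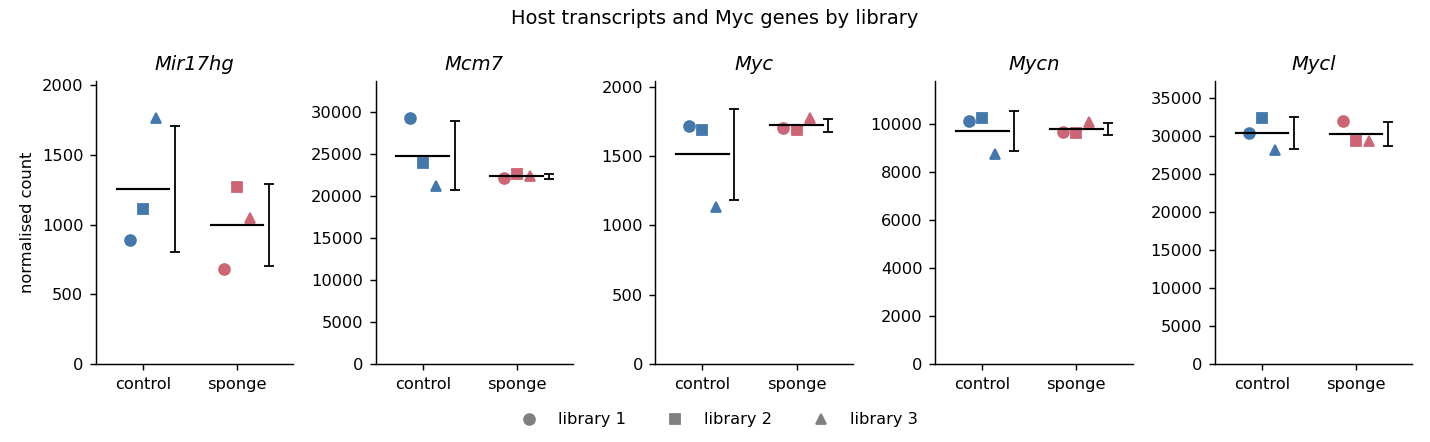
Normalised count (linear axis from 0) of each of the 5 genes in the 3 control (blue) and 3 sponge (red) libraries, with marker shape for the library number, a line at the group mean and a bar of 1 SD to either side. Groups overlapped for every gene, control library 3 was the highest for Mir17hg and the lowest for the other 4 genes, and control library 1 was the highest for Mcm7.

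In the authors' deposited table, which lists 10812 genes with a mean of at least 1003, the log2 fold changes were −0.33 for Mir17hg, −0.15 for Mcm7, 0.19 for Myc, 0.01 for Mycn and −0.0044 for Mycl. Its adjusted p-values for these genes were 0.995 to 1.00 in the authors' deposited table, where 1 gene of 10812 (0.00925%) was under 0.05.

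**Figure D2:**
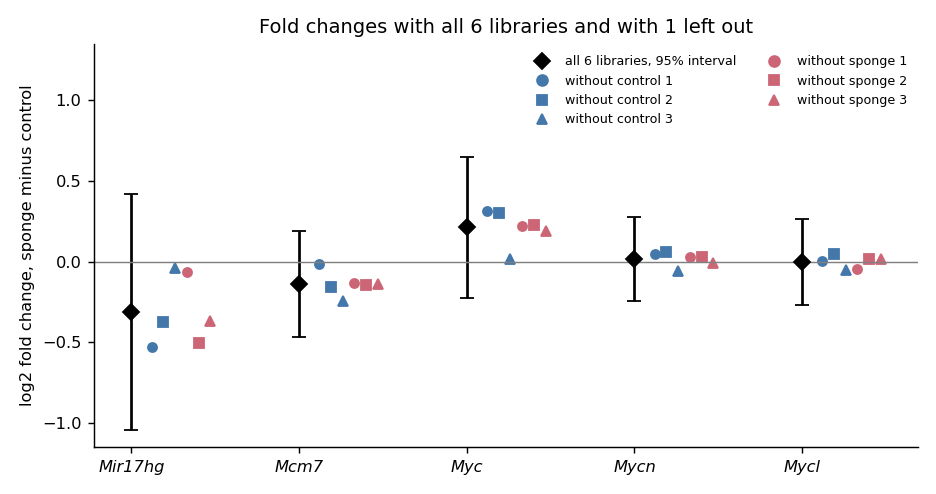
Log2 fold change, sponge minus control, of the 5 genes on log2(normalised count + 1) with all 6 libraries (diamond, bar for the 95% interval) and with each library left out in turn (coloured symbols). All 5 intervals include 0, the Mir17hg and Myc values come near 0 without control library 3, and the Mcm7 value does so without control library 1. The Mir17hg and Myc values lie farther from 0 without control library 1, and the Mcm7 value without control library 3.

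Levels were compared per kilobase of annotated exon, since the genes differ in length (2717 to 4426 bases of exon). Mycl was the highest with a mean of 7509 normalised counts per kb (6986 to 8026 over the 6 libraries). Mcm7 followed with 5330 (4801 to 6622) and Mycn with 2957 (2654 to 3108). Myc stood at 595 (417 to 653) and Mir17hg at 319 (194 to 500). These means ranked at the percentiles 96.8, 94.99, 89.0, 57.5 and 46.4 of the tested genes, so Myc and Mir17hg were near the middle of the transcriptome and the other 3 were in its top part.

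The order Mycl, Mcm7, Mycn, Myc held in all 6 libraries, with per-kb ratios between neighbours of 1.14 to 1.59, 1.65 to 2.16 and 4.66 to 6.36. A gene's length, the union of its exons over annotated transcripts, divides every library alike, so the libraries cannot test it. For Mcm7 this length includes the transcript that keeps the intron. Whether Mycl stays above Mcm7, or the percentiles hold, with other lengths was not tested. Myc and Mir17hg could not be ordered beyond their spread. Their ratio ran from 0.835 to 3.24, and Myc was higher in 5 of 6 libraries.

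Within the summed per-kb level of the 3 Myc genes, Mycl made up 66.2 to 69.5%, Mycn 25.5 to 27.9% and Myc 4.15 to 5.95%. The share of Myc was 5.01% ± 0.767 in the control and 5.71% ± 0.247 in the sponge libraries (SD, n = 3 each), and its lowest value was that of control library 3. The 3 genes lie on different chromosomes, Myc at chr15:61985391-61990374, Mycn at chr12:12936093-12941914 and Mycl at chr4:122995652-123002485.

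**Figure D3:**
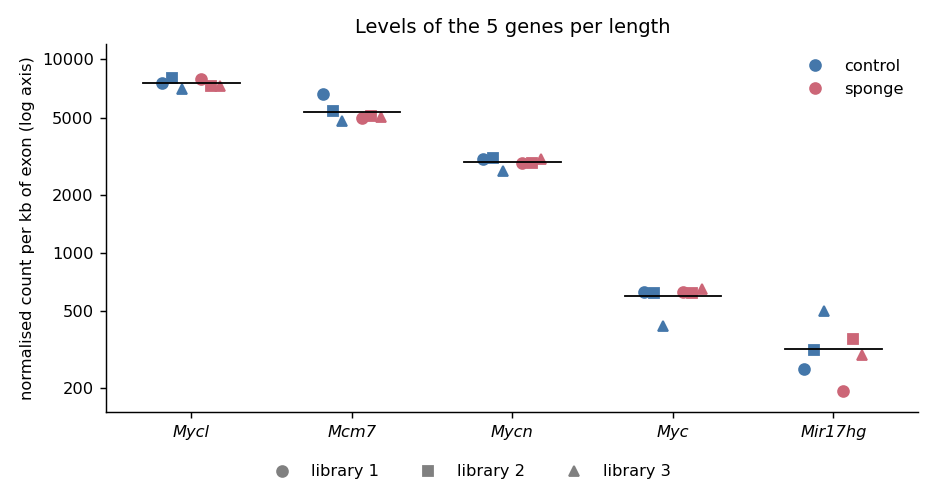
Normalised count per kb of annotated exon (log axis) of the 5 genes, ordered by their mean (line), in the 3 control (blue) and 3 sponge (red) libraries, with marker shape for the library number. The ranges of Mycl, Mcm7, Mycn and Myc do not overlap, while the range of Mir17hg, 194 to 500, overlaps that of Myc.

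The hairpin genes have rows of their own. These do not measure mature microRNAs, which are too short and lack the poly(A) tail selected by a messenger RNA library. All 6 hairpins of the Mir17hg cluster had low counts, with a highest value of 42.5 in any library. Mir17, the hairpin of the sponged microRNA, measured 0, 7.36 and 16.2 in the control libraries and 10.8, 12.5 and 7.07 in the sponge libraries. Its groups overlapped, and its mean of 8.99 was under the limit for testing.

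Summed over the cluster, the 6 hairpins measured 38.0, 95.7 and 198 in the control libraries and 37.5, 79.2 and 104 in the sponge libraries. Library 1 of each group was the lowest and control library 3 the highest, which also held for the host. In the sponge group the highest differed, being library 3 for the hairpins and library 2 for the host (1268 against 1049 in library 3). Per kb, the hairpins stood at 28.1 to 74.0% of the Mir17hg level. The other 5 hairpins of the cluster had log2 fold changes between −1.41 ± 1.26 (SE, Mir19b-1) and 0.55 ± 1.43 (Mir19a), none past the threshold (limma adjusted p). Of the 9 hairpin genes of both clusters 7 were tested and 0 called higher or lower, where 0.0% of all genes tested were called. Their fold changes were below 0 for 6 of the 7, with a median of −0.73, while 49.1% of all genes tested were below 0. The 7 hairpins are parts of Mir17hg or Mcm7 with low counts, so they are not separate observations. Without sponge library 1, where Mir19b-1 and Mir92-1 were at 0, the Mir19b-1 fold change and the median were both −0.12.

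The hairpins of the Mcm7 intron stood lower against their host, at 3.17 to 7.74% of its per-kb level. Mir106b, which shares the miR-17-5p seed, measured 12.003, 12.6 and 14.2 in the control libraries and 5.91, 4.17 and 8.83 in the sponge libraries. All 3 sponge values were below all 3 control values. The exact permutation p was 0.1, the smallest that 3 against 3 can give, and its mean of 9.62 was under the limit for testing. The separation thus rests on a few counts, and on fewer read pairs if mates were counted separately, which was not tested. Of all 35510 genes, 3.98% had sponge values wholly below the control values.

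Mir93, also with this seed, measured 25.0, 22.1 and 15.2 in the control libraries and 15.8, 18.8 and 6.18 in the sponge libraries, with overlap (log2 fold change −0.68 ± 0.63, SE; limma adjusted p = 0.925; −0.23 without sponge library 3). Mir25 was the most counted hairpin, with 59.0, 71.5 and 64.7 in the control and 37.5, 60.4 and 25.6 in the sponge libraries. Sponge library 2 reached into the control range (log2 fold change −0.73 ± 0.42, SE; limma adjusted p = 0.925; −0.44 to −1.04 with 1 library left out). The 3 intronic hairpins summed to 98.8 ± 6.53 in the control and 61.0 ± 21.4 in the sponge libraries (SD, n = 3 each), while Mcm7 itself differed by −0.14 on the log2 scale. How the authors' counter shared reads between hairpin and host rows is not given in the sources used here, so the hairpin values are uncertain in this respect.

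**Figure D4:**
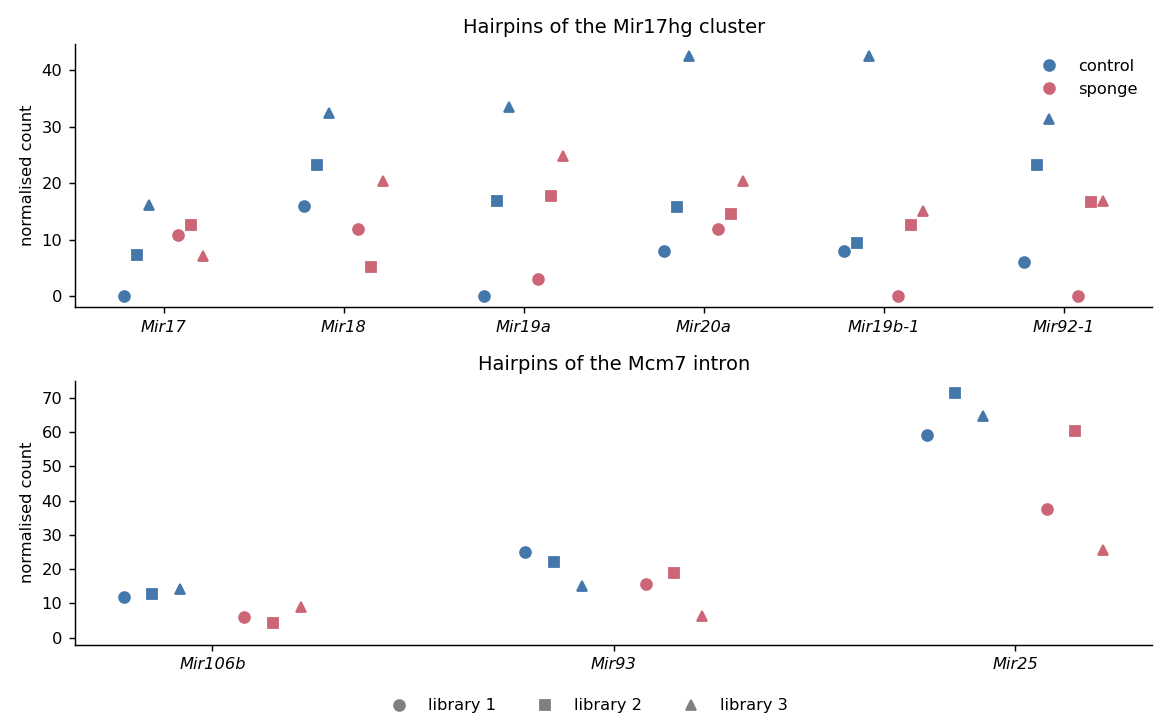
Normalised count of each hairpin gene in the 3 control (blue) and 3 sponge (red) libraries, for the Mir17hg cluster (top) and the Mcm7 intron (bottom), with marker shape for the library number. Every value of the Mir17hg cluster is at most 42.5, and the Mir106b values of the sponge libraries, 4.17 to 8.83, lie below those of the control libraries, 12.003 to 14.2.

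A pair of genes on the opposite strand overlap Mcm7, and the strand setting of the counting is not given, so reads of the shared stretches cannot be told apart. Cops6, a subunit of the COP9 signalosome, overlaps it by 64 bases and measured 14005, 9386 and 8232 in the control and 9663, 8858 and 9360 in the sponge libraries. Like Mcm7 it was highest in control library 1 and lowest in control library 3 (log2 fold change −0.14 ± 0.19, SE; limma adjusted p = 0.925; 0.08 without control library 1). Ap4m1, a subunit of an adaptor complex of vesicle transport, overlaps Mcm7 by 421 bases and was instead highest in control library 3, with 10168, 10964 and 12701 in the control and 10594, 10647 and 10419 in the sponge libraries (log2 fold change −0.09 ± 0.12, SE; −0.00073 without control library 3).

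Seed sites were looked up in the 3′ UTRs of the 4 protein-coding genes because a sponge for miR-17-5p could free transcripts that carry them. The sites searched on the transcript strand were GCACTTT for the seed of miR-17-5p, GCACCTT for miR-18a-5p, TTTGCAC for miR-19 and GTGCAAT for miR-92a-3p and miR-25-3p. Among 15198 tested genes with a 3′ UTR of at least 50 bases (median 1167 bases), these occurred in 14.1%, 9.13%, 13.1% and 7.52%. The sites found are shown with 10 bases to either side, from the GENCODE transcripts, with the site in capitals.
Mcm7, chr5, miR-17-5p site: ctcccatgctGCACTTTtttattctgc
Mycn, chr12, miR-17-5p site: gcaccttagaGCACTTTgaaatacctc
Mycn, chr12, miR-18a-5p site: atttagtgctGCACCTTagagcacttt
Mycn, chr12, miR-19 site: tcactgccacTTTGCACattttgattt
Mycl, chr4, miR-19 site: cttttagtaaTTTGCACattttggtta
Mcm7 has the miR-17-5p site at base 82 of a 3′ UTR of 136 bases, and Mycn at base 861 of 913. The miR-18a-5p site of Mycn begins at base 851, so its stretch overlaps that of the miR-17-5p site. No searched site occurred in the Myc 3′ UTR of 466 bases, and the 3′ UTR of Mycl, 1970 bases, held only the miR-19 site. Mcm7 and Mycn, the genes with the miR-17-5p site, had log2 fold changes of −0.14 ± 0.14 and 0.02 ± 0.11 (SE), neither past the threshold (limma adjusted p). A match is a description of these letters and not evidence that the site is used.

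Mcm7 works in a ring with 5 other subunits, and these were described beside it. Of Mcm2, Mcm3, Mcm4, Mcm5 and Mcm6, 0 were called higher and 0 lower, where 0.0% of all genes tested were called. Their median log2 fold change was −0.0072 against 0.0061 over all genes tested. All 5 were lowest in control library 3, as Mcm7 was, and 3 of 5 were highest in control library 1. Without control library 1 all 5 fold changes were above 0, with a median of 0.08. Mcm2 measured 10568 ± 1271 in the control and 11264 ± 1336 in the sponge libraries, and Mcm6 15170 ± 2123 and 14383 ± 708 (SD, n = 3 each). Log2 fold changes were 0.09 ± 0.14 for Mcm2, 0.10 ± 0.13 for Mcm4 and −0.07 ± 0.14 for Mcm6 (SE). Without sponge library 3 the values of Mcm2 and Mcm4 were 0.0034 and 0.01, and without control library 1 that of Mcm6 was 0.0039.

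Mcm7 was the most abundant subunit per kb of annotated exon. This rank depends on union exon lengths, 4426 bases for Mcm7 and 3589 (Mcm4) to 6956 (Mcm2) for the others. Other lengths were not tested. Against the mean of the other 5, its per-kb level stood at 2.56, 2.10 and 2.35 in the control and 2.12, 2.30 and 1.93 in the sponge libraries, with overlap. The ratio was 2.34 ± 0.233 in the control and 2.12 ± 0.184 in the sponge libraries (SD, n = 3 each).

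**Figure D5:**
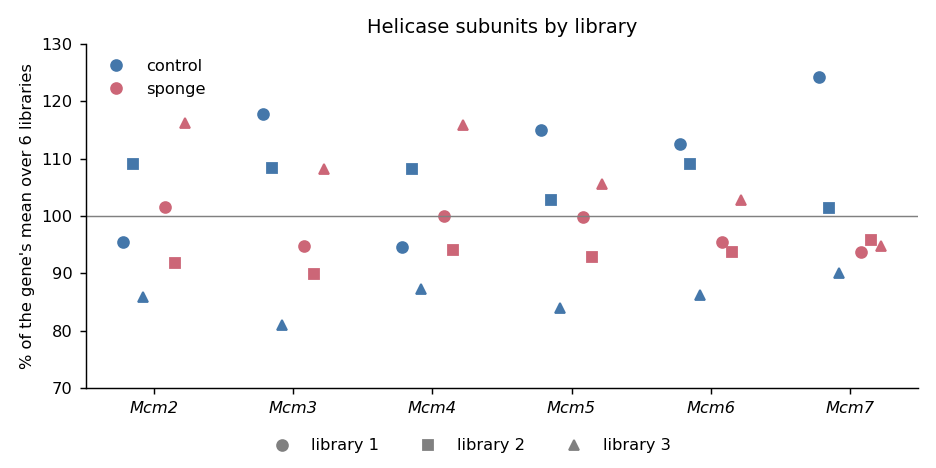
Normalised count of each of the 6 helicase subunits as a percent of that gene's mean over the 6 libraries, in the 3 control (blue) and 3 sponge (red) libraries, with marker shape for the library number. Control library 3 is the lowest for every subunit, and control library 1 is the highest for Mcm3, Mcm5, Mcm6 and Mcm7.

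Other factors that load or start the helicase had 0 of 18 members called higher and 0 called lower, where 0.0% of all genes tested were called. Of these 18, 13 had a fold change below 0, with a median of −0.10, while 49.1% of all genes tested were below 0. Without control library 1, 12 of the 18 were below 0, with a median of −0.08. Gins2, of the GINS complex that joins the helicase, measured 22498, 17955 and 17156 in the control and 14312, 14768 and 16813 in the sponge libraries, without overlap (log2 fold change −0.32 ± 0.14, SE; limma adjusted p = 0.925; −0.20 without control library 1). Orc6, of the origin recognition complex, measured 5461 ± 1059 and 4385 ± 434 (SD, n = 3 each), also without overlap, with a log2 fold change of −0.30 ± 0.16 (SE) that was −0.15 without control library 1. Dbf4, the activator of the Cdc7 kinase, overlapped between groups at −0.19 ± 0.14 (SE; −0.09 without control library 2, −0.25 without control library 1). Sponge values wholly below the control values occurred in 5.04% of all genes tested.

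The partners and rivals of Myc at its DNA sites form a network around Max and Mlx. Of 11 such genes, 0 were called in either direction, where 0.0% of all genes tested were called. Fold changes were above 0 for 5 and below 0 for 6, with a median of −0.0016 (−0.06 without control library 1). Mlxipl, a glucose-responsive partner of Mlx, measured 292, 384 and 411 in the control and 233, 264 and 178 in the sponge libraries. All sponge values were lower, at a log2 fold change of −0.69 ± 0.26 (SE; limma unadjusted p = 0.0283, adjusted p = 0.925). Mlx was also without overlap, at 3131 ± 310 and 2627 ± 77.6 (SD, n = 3 each; log2 fold change −0.25 ± 0.13, SE). Sponge values were thus wholly lower for 2 of the 11 genes, and for 5.04% of all genes tested. Zbtb17, through which Myc represses genes, differed by −0.21 ± 0.12 (SE), with overlap. Max, the obligate partner of Myc, was named after its values were seen and measured 8857 ± 1401 and 7939 ± 271 (SD, n = 3 each), a difference of −0.15 ± 0.14 (SE) on the log2 scale that was −0.02 without control library 1.

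The activator E2F genes, known regulators of both host transcripts, had 0 of 3 called in either direction, where 0.0% of all genes tested were called. E2f1 differed by −0.16 ± 0.14, E2f2 by −0.16 ± 0.19 and E2f3 by 0.22 ± 0.15 on the log2 scale (SE), each with overlap between groups. Without control library 1 the values of E2f1 and E2f3 were −0.07 and 0.11, and without sponge library 1 that of E2f2 was −0.01. Of 7 genes of Myc protein turnover, 0 were called in either direction, with a median of 0.11 (−0.02 without control library 1). Fbxw7, the ubiquitin ligase subunit that marks Myc for degradation, measured 12275 ± 1271 and 10528 ± 769 (SD, n = 3 each; log2 fold change −0.22 ± 0.12, SE; −0.14 without control library 3). Huwe1, another ubiquitin ligase for Myc proteins, measured 29267 in control library 1 and 53515 to 72448 in the other 5 libraries, and its fold change of 0.47 ± 0.27 (SE) was 0.15 without that library. Skp2, a ligase subunit that also acts as a Myc cofactor, differed by 0.15 ± 0.15 (SE), and by 0.02 without control library 1.

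Of 22 commonly cited Myc targets of ribosome making, metabolism and the cell cycle, 0 were called higher and 0 lower. Among all genes tested 0.0% were called. Their median log2 fold change was −0.11, with 18 below 0 and 4 above. Control library 1 was the highest library for 16 of the 22 genes, and without it 9 were below 0 and 13 above, with a median of 0.02. Nop56, a protein of the small nucleolar particles that modify ribosomal RNA, measured 13727 ± 675 in the control and 11841 ± 866 in the sponge libraries without overlap (SD, n = 3 each; log2 fold change −0.21 ± 0.11, SE; limma adjusted p = 0.925). It was the 1 gene of the 22 with wholly lower sponge values, which 5.04% of all genes tested had. Gnl3 and Nolc1, both nucleolar proteins, differed by −0.22 ± 0.13 and −0.20 ± 0.12 on the log2 scale (SE). Without sponge library 1 the Gnl3 value was −0.14.

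Markers of dividing cells were read beside the 5 genes, which are best known from proliferating cells. Of the 12 markers, 0 were called in either direction, where 0.0% of all genes tested were called. Fold changes were above 0 for 5 and below 0 for 7. The median was −0.04 on the log2 scale (−0.15 without control library 3, 0.02 without control library 2). Mki67, a protein of cycling nuclei, measured 13756, 20885 and 20346 in the control and 22696, 20979 and 24378 in the sponge libraries, wholly higher (log2 fold change 0.33 ± 0.18, SE; limma adjusted p = 0.925; 0.14 without control library 1). Sponge values wholly above the control values occurred in 6.17% of all genes tested. Birc5, an inhibitor of apoptosis that serves chromosome segregation, measured 3458 ± 712 and 2851 ± 527 (SD, n = 3 each) and Plk1, a mitotic kinase, 5176 ± 634 and 4725 ± 460. Both overlapped between groups, with log2 fold changes of −0.28 ± 0.20 (−0.12 without control library 1) and −0.13 ± 0.14 (SE; −0.23 without control library 3).

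For each of the 5 genes the 3 genes of most similar pattern were taken by Pearson correlation of log2 values over the 6 libraries. They were taken among 14086 genes with a mean of at least 50. Symbols that start with Gm and a digit, end in Rik or hold -ps were left out of these 14086. With 6 points that share library composition and depth the correlations are a description. Closest to Mir17hg were Zfp692 (r = 0.994), Mir7115 (0.993) and Khnyn (0.989), and 0.547% of the genes exceeded 0.95. Closest to Mcm7 were Shmt2 (r = 0.999), the mitochondrial serine hydroxymethyltransferase, Eif2b3 (0.997), a subunit of a translation initiation factor, and Pcdha12 (0.997), a clustered protocadherin. For Mcm7, 6.31% of the genes exceeded 0.95.

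The genes nearest to Myc were Ssr1 (r = 0.990), Stambpl1 (0.982) and Mif4gd (0.980). These rested on control library 3, since without it the values were 0.867, 0.480 and 0.657. Closest to Mycn were Lin7c (0.991), Cops2 (0.989) and Ribc1 (0.986), and closest to Mycl were Pkd1l1 (0.993), Tbc1d22b (0.986) and AW551984 (0.984). Without control library 3, the 6 values for Mycn and Mycl stayed between 0.925 and 0.988. The shares of genes above 0.95 were 0.22% for Myc, 0.206% for Mycn and 0.0639% for Mycl.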

How the data were processed

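Messenger RNA was sequenced from 3 control and 3 sponge libraries, grouped by their titles. Libraries were made with a stranded ligation kit, per the labels' protocols, and the authors' tools were, per the submitters' processing notes, STAR 2.7.6a and DESeq2 1.30.1, with the builds mm10 and GRCm38. Not given in the sources used here are annotation, counting tool and strand setting. Deposited normalised counts are a linear signal, counts divided by the authors by 1 factor per library. The authors' deposited comparison gives mean normalised counts, log2 fold changes and p-values, per the file headers.

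limma 3.58.1 (R 4.3.3, with a trend and robust empirical Bayes) compared genes with a mean of at least 10 on the scale log2(value + 1), two-sided, with p adjusted by Benjamini-Hochberg against 0.05. This scale understates changes of low genes. The fit was tested on data simulated with each gene's own spread, but without deviations that many genes of a library share. The members and the 16 gene lists were chosen with earlier results of these data known. Besides the members, the text names the hairpin genes, overlapping genes, up to 3 genes of smallest p in a list and the 3 nearest patterns. Of 35510 identifiers, 35389 matched GENCODE release M21 on GRCm38, and exon lengths are unions over transcripts. Per-kb percentiles are among tested genes with such a length. Libraries pool brains, but nothing says that they are separate litters, so p-values measure the spread between these libraries, which may be technical. Alternatives were other pseudocounts (0.5 and 5), filters (none, 50), quantile normalisation, array weights, a replicate block and each library left out. For most genes, values with 1 library left out are given for some omissions only.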

Additional observations from a re-analysis of the deposited data

How the results depend on the processing

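No gene list and none of the 5 genes gained a call under the alternatives run. Genes called higher numbered 0, but 3 with array weights and 2 without control library 1 (0 to 2 with 1 library left out), and genes called lower 0, but 1 with array weights. With the replicate block 0 were called either way (316 higher and 211 lower at an unadjusted p under 0.05), and the Mir17hg fold change stayed at −0.31 (SE 0.24). Same-numbered libraries deviated from their group means with correlations of 0.0096, 0.0054 and −0.0532. Nothing says whether same-numbered libraries were prepared together, and correlations over all genes cannot decide this. Of 65 fold changes of the 5 genes under alternatives 58 kept their sign, with adjusted p of 0.600 to 0.999. Mycn turned to −0.0212 with array weights, −0.06 without control library 3 and −0.0063 without sponge library 3 (−0.0576 to 0.0563 with 1 library left out). Mycl turned to 0.000514 without control library 1, 0.0448 without control library 2, 0.0166 without sponge library 2 and 0.0188 without sponge library 3 (−0.0553 to 0.0448). Of 397 fold changes of other named genes 388 kept their sign. Mir19a turned to −0.064 with quantile normalisation, −0.148 with array weights and −0.998 without control library 1 (up to 1.55 with 1 library left out), Mir20a to 0.40 without control library 3 (down to −0.736) and Mir92-1 to 0.0092 without sponge library 1 (down to −2.07). Cops6 turned to 0.0794 (down to −0.304) and Mcm6 to 0.0039 (down to −0.189) without control library 1, and Mcm2 to −0.0157 and Mcm4 to −0.0012 with array weights. The causes were not tested. Count-model tests planned on reads recovered from the steps of the values were not run, because control libraries 1 and 3 did not pass the check set for this recovery. Their values were nevertheless whole multiples of their steps. The largest gap to a whole multiple was 9.5e-09 in control library 1 and 5.2e-10 in control library 3. Hairpin rows of a few counts limit what depth could resolve.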
